A study of Mus musculus with 6 samples.

Results

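The genes described here are 10 genes of hippocampal interneurons: the neuropeptide genes Vip, Sst, Npy, Cck, Tac2 and Crh, the calcium-binding protein gene Pvalb, the secreted glycoprotein gene Reln, and the GABA-synthesizing enzyme genes Gad1 and Gad2. They were taken by gene symbol, and all 10 were present among the 15388 genes of the deposited table. They were picked with their behaviour in this contrast already known, so their Positive against Input values are a description and carry no test. RNA sequencing was carried out on hippocampi of 3 Cx3cr1-Cre/Ert2+; NuTRAP+ mice (animals 201, 207 and 208). Per the study's methods, the mice were heterozygous for both alleles and had received daily tamoxifen injections; age (about 3 months) and sex (males and females) are given there for the study as a whole and not for these 3 mice. All 6 libraries share this genotype and induction, and each mouse gave both fractions. Cre from the Cx3cr1 locus is active in microglia and in other macrophages, and recombination of the NuTRAP cassette places an EGFP tag on the ribosomes of those cells. The Input fraction was a portion of the cleared homogenate, and the Positive fraction was the RNA recovered with anti-GFP antibody by translating ribosome affinity purification (TRAP). No pulldown from mice lacking Cre was analysed here, so reads from tagged ribosomes and reads carried along by the beads cannot be told apart.

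GABAergic interneurons are a minority of hippocampal neurons and control the timing and strength of principal cell firing. They are sorted into classes by what they contain: basket and axo-axonic cells with parvalbumin, dendrite-targeting cells with somatostatin, cells with vasoactive intestinal peptide (VIP) that often contact other interneurons, basket cells with cholecystokinin, and neurogliaform cells with reelin and neuropeptide Y. Parvalbumin and somatostatin cells arise from the medial ganglionic eminence, and most VIP and cholecystokinin cells from the caudal ganglionic eminence. The classes are not exclusive, since Npy is also found in somatostatin cells, Cck in principal cells, and Reln in Cajal-Retzius cells of the hippocampal fissure.

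Promoter sequence is shown for the genes at both ends of the range of differences, Vip and Pvalb, and for Sst, whose fractions overlapped. Each run is the 250 bases that precede the RefSeq start site on the gene's own strand in GRCm38.p6, written 5′ to 3′, and capitals mark the cAMP response element TGACGTCA, its half-site TGACG (or CGTCA) and the TATA motif TATAAA.
Vip, chr10:5638968-5639217, plus strand: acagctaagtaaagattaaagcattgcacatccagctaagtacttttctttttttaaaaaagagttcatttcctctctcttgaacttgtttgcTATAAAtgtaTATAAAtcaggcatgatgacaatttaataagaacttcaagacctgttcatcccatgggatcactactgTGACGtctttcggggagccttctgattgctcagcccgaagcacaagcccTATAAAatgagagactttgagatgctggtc
Sst, chr16:23890845-23891094, minus strand: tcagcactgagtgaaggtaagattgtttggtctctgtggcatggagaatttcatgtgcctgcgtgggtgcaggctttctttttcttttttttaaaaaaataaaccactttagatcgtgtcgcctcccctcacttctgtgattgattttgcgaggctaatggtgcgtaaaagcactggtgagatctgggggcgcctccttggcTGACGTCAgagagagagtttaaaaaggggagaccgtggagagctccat
Pvalb, chr15:78206401-78206650, minus strand: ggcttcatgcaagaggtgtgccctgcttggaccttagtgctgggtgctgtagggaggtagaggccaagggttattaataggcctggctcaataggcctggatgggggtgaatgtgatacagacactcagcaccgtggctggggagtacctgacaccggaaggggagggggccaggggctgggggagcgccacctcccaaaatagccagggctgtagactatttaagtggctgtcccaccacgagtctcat

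The Sst window held the full response element 48 bases before the start site, a match found in 1.55% of the 32851 RefSeq windows of this length. The half-site, searched on both strands and counted also inside the full element, was in the windows of Vip, Sst, Cck and Gad2, 4 of the 9 genes with an entry, against 17.8% of all windows. TATAAA on the gene's strand was in the Vip window only, at 157, 147 and 30 bases before the start, against 7.59% of all windows. None of these letters was in the printed Pvalb window. These matches are descriptions of sequence and not binding sites. Any link between them and the differences between the fractions was not tested.

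Vip, Tac2, Crh, Reln, Gad1 and Gad2 were higher in all 3 Positive libraries than in any Input library, Pvalb and Cck were lower in all 3, and Sst and Npy overlapped. Values are reads per gene divided by library size factors (scaled reads). The deposited counts of the 15388 genes summed to 14879734 to 17757918 per library. Across all 15344 genes tested, the Positive libraries all lay above the Input libraries for 28.9% and all below for 27.6% (56.5% in either direction). The same 8 genes went one way in all 3 animals, 6 up and 2 down, as did 34.9% and 35.6% of all genes. In edgeR's quasi-likelihood fit over those genes, 6 of the 10 genes passed as higher and 2 as lower, where 24.0% and 22.0% of all genes were called. Nothing is read from these counts, because the genes were chosen on this contrast. The fitted log2 fold changes ran from -2.07 for Pvalb to 1.66 for Vip with a median of 0.34, beside a median of -0.01 and quartiles of -0.32 and 0.29 over all genes.

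**Figure D1:**
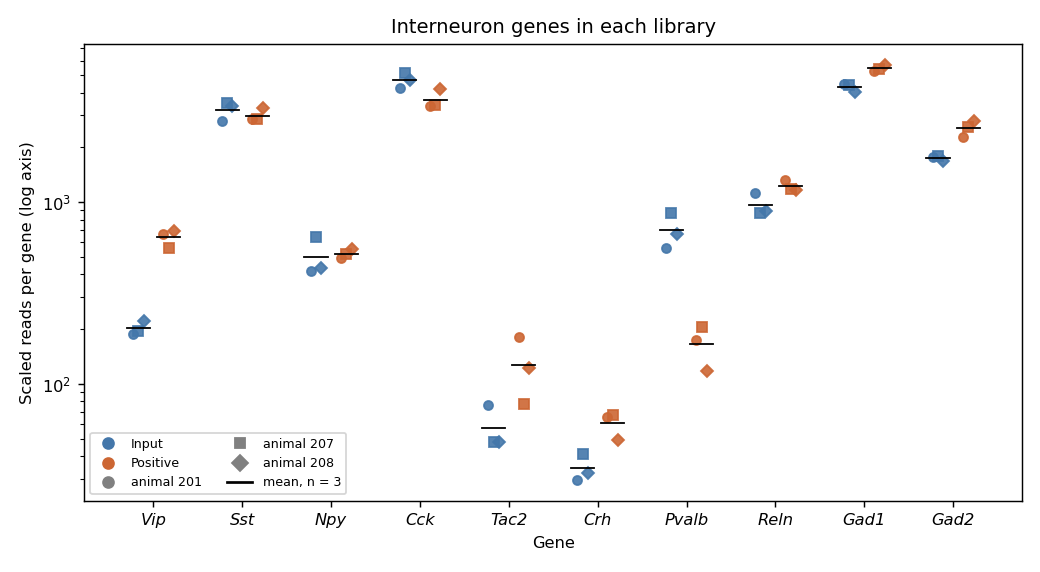
Scaled reads (log axis) of the 10 genes in each library, with Input in blue, Positive in orange, a marker shape for each animal and a line at the mean of 3 libraries. The Vip points of the fractions lie far apart with Positive on top, those of Pvalb far apart with Positive below, and those of Sst and Npy overlap.

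Vip encodes vasoactive intestinal peptide, the defining peptide of a class of caudal-origin interneurons. The Vip gene (ENSMUSG00000019772) lies on chr10:5639218-5647617 of mm10, plus strand. It had 188.5, 195.4 and 222.2 scaled reads in Input of animals 201, 207 and 208, and 668.2, 557.1 and 692.7 in Positive. The lowest Positive library stood 2.51 times above the highest Input library. The fitted difference was 3.16-fold (log2 1.66 ± 0.13, SE), and the 3 animals gave 1.82, 1.51 and 1.64 on the log2 scale.

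Tac2 encodes the precursor of neurokinin B, a tachykinin found in a subset of interneurons. Its scaled reads were 76.3, 47.9 and 47.9 in Input and 179.9, 77.9 and 122.9 in Positive. Animal 201 was the highest in both fractions, and the lowest Positive library was only 1.02 times the highest Input library. The fitted log2 difference was 1.14 ± 0.30 (SE), the least precise of the 10, and the coefficient of variation reached 40.3% in Positive against a median of 10.5% over all genes.

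Crh encodes corticotropin-releasing hormone, which in the hippocampus is made by interneurons of the pyramidal layer. It was the gene with the fewest reads, with 29.6, 41.3 and 32.5 scaled reads in Input and 65.6, 67.1 and 49.1 in Positive. All Positive libraries were above all Input libraries, by a margin of 1.19 times. The fit gave a log2 difference of 0.81 ± 0.25 (SE). With each library left out in turn the log2 value stayed between 0.71 and 0.96.

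Sst encodes somatostatin, the peptide of dendrite-targeting interneurons such as oriens-lacunosum-moleculare cells. Its scaled reads were 2798, 3494 and 3373 in Input and 2846, 2850 and 3271 in Positive. The fractions overlapped, with the lowest library in Input of animal 201. The fitted log2 difference was -0.11 ± 0.10 (SE), and the animals gave 0.02, -0.29 and -0.04.

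Npy encodes neuropeptide Y, carried by neurogliaform cells and by part of the somatostatin cells. It had 418.9, 641.8 and 436.1 scaled reads in Input and 492.9, 519.0 and 550.0 in Positive. Input of animal 207 stood above every other library, and the remaining Input libraries were below all Positive libraries. The coefficient of variation was 24.9% in Input and 5.49% in Positive. Between the fractions the fit gave a log2 difference of 0.06 ± 0.15 (SE) with 0.23, -0.31 and 0.33 by animal, and it was 0.28 without Input 207 and -0.019 when libraries were scaled to their total reads.

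Cck encodes cholecystokinin, made by a class of basket cells and also by hippocampal principal cells. Its scaled reads were 4242, 5117 and 4708 in Input and 3393, 3401 and 4166 in Positive. The fractions did not overlap, but the highest Positive library lay just under the lowest Input library, which was 1.02 times higher. The fitted log2 difference was -0.36 ± 0.10 (SE). Without Input 207 it was -0.29.

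Pvalb encodes parvalbumin, the calcium buffer of fast-spiking basket and axo-axonic cells. The Pvalb gene (ENSMUSG00000005716) lies on chr15:78191114-78206400 of mm10, minus strand. It had 559.4, 874.0 and 669.4 scaled reads in Input and 174.5, 205.4 and 118.3 in Positive. Every Input library was at least 2.72 times above every Positive library, and by the fitted fold Positive was at 23.8% of Input. The fit gave a log2 difference of -2.07 ± 0.20 (SE), and the animals gave -1.68, -2.08 and -2.49. Pvalb also varied within each fraction, by 1.56 times between Input libraries and 1.74 times between Positive libraries.

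Reln encodes reelin, a large extracellular protein that signals through lipoprotein receptors on neurons. Its scaled reads were 1121, 865.4 and 894.5 in Input and 1318, 1180 and 1161 in Positive. The fractions were separated by a margin of 1.04 times. The fitted log2 difference was 0.34 ± 0.10 (SE), and the animals gave 0.23, 0.45 and 0.38. With each library left out in turn the log2 value stayed between 0.27 and 0.47.

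Gad1 and Gad2 encode the glutamate decarboxylases GAD67 and GAD65, which make GABA throughout the cell and at nerve terminals, and both are used by nearly all interneurons. Gad1 had 4450, 4407 and 4033 scaled reads in Input and 5280, 5395 and 5692 in Positive. Gad2 had 1778, 1787 and 1674 in Input and 2282, 2579 and 2795 in Positive. Neither gene overlapped between the fractions, and in Input their coefficients of variation, 5.34% and 3.60%, were the lowest of the 10. Between the fractions the fit gave a log2 difference of 0.34 ± 0.08 (SE) for Gad1 and 0.55 ± 0.09 (SE) for Gad2. An antisense gene, Gad1os, overlaps an exon of Gad1, and Gm10475 overlaps one of Reln. Reads were aligned by direction, but how they were then counted is not given in the sources used here, so reads shared by these pairs are uncertain.

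**Figure D2:**
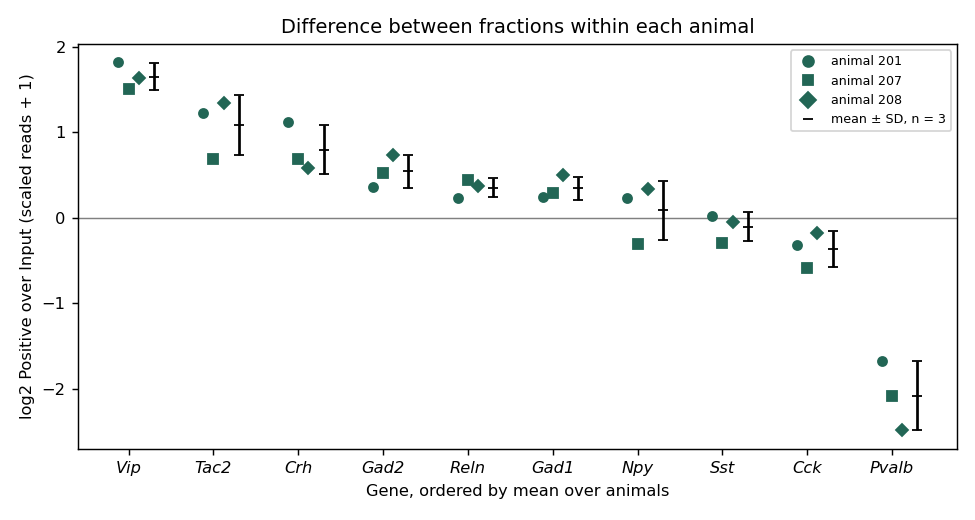
Log2 of Positive over Input within each animal for the 10 genes, on scaled reads with a pseudocount of 1, with the mean ± SD of 3 animals beside the points. Vip is above 1.5 in every animal and Pvalb at -1.68 or below in every animal, while Sst and Npy have animals on both sides of 0.

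The libraries shared some of their deviations across these genes. In Input, animal 207 was the highest library for 6 of the 10 genes (Sst, Npy, Cck, Crh, Pvalb and Gad2), against 31.8% of all genes. In Positive, animal 208 was the highest for Vip, Sst, Npy, Cck, Gad1 and Gad2, a position it held for 32.3% of all genes, and the lowest for Pvalb, Crh and Reln, a position it held for 44.2% of all genes. The within-animal log2 differences for Gad1, Gad2, Pvalb, Tac2 and Npy were largest in size in animal 208, at 0.50, 0.74, -2.49, 1.34 and 0.33. That Positive library also had the smallest summed reads of the microglia genes and of the choroid plexus genes described below, and the part of this in the differences was not tested.

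Ratios between genes of the same library do not depend on how libraries are scaled, and they changed most between Vip and Pvalb. There were 0.22 to 0.34 Vip reads for each Pvalb read in Input and 2.71 to 5.86 in Positive. Cck reads outnumbered Vip reads by 21.2 to 26.2 times in Input and by 5.08 to 6.11 times in Positive. Sst reads outnumbered Pvalb reads by 4.00 to 5.04 times in Input and by 13.9 to 27.7 times in Positive. Npy kept to 0.13 to 0.18 reads for each Sst read in Input and 0.17 to 0.18 in Positive, so this pair had overlapping ratios.

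Counted against 100 reads of Gad1, a gene of nearly all interneurons, the genes again parted. Gad1 was itself higher in Positive, with a fitted log2 difference of 0.34, and every value here is relative to it. Vip went from 4.73 ± 0.68 in Input to 11.7 ± 1.23 in Positive (SD, n = 3). Pvalb went from 16.3 ± 3.64 to 3.06 ± 0.89 (SD, n = 3). Reln, whose fitted log2 difference was also 0.34, had nearly the same value in both, 22.3 ± 2.78 and 22.4 ± 2.33 (SD, n = 3). Sst had 62.9, 79.3 and 83.7 in Input and 53.9, 52.8 and 57.5 in Positive. On this denominator its fractions did not overlap, while its scaled reads did. Cck had 109.4 ± 12.2 in Input and 66.8 ± 5.55 in Positive (SD, n = 3). Both fractions of a mouse came from the same homogenate, so these ratios describe the RNA recovered in each fraction and not cell numbers. What set the fractions apart was not tested.

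Levels of different genes can be compared only per length. Here this is scaled reads per kilobase of the merged exons of a gene's protein-coding transcripts in the GENCODE basic set. Sst had the highest level in Input, 4469 ± 517 (SD, n = 3), followed by Cck at 4035 ± 377 (SD, n = 3), and the ranges of these neighbours overlapped. Gad1 at 984 ± 52.6 overlapped with Npy at 882 ± 219, and Npy overlapped with Pvalb at 673 ± 153 (SD, n = 3). Gad2 followed at 304 ± 10.9, Vip at 132 ± 11.6, then Reln at 82.1 ± 12.0 and Tac2 at 65.1 ± 18.6, which overlapped each other, and Crh at 26.1 ± 4.64 (SD, n = 3). With the length of the longest coding transcript instead, Cck had 5869 and stood above Sst. In Positive the upper part of the order was the same, but Pvalb fell from rank 5 to rank 7 with a level of 160 ± 42.4, below Gad2 at 444 ± 44.9 and Vip at 418 ± 47.2 (SD, n = 3).

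**Figure D3:**
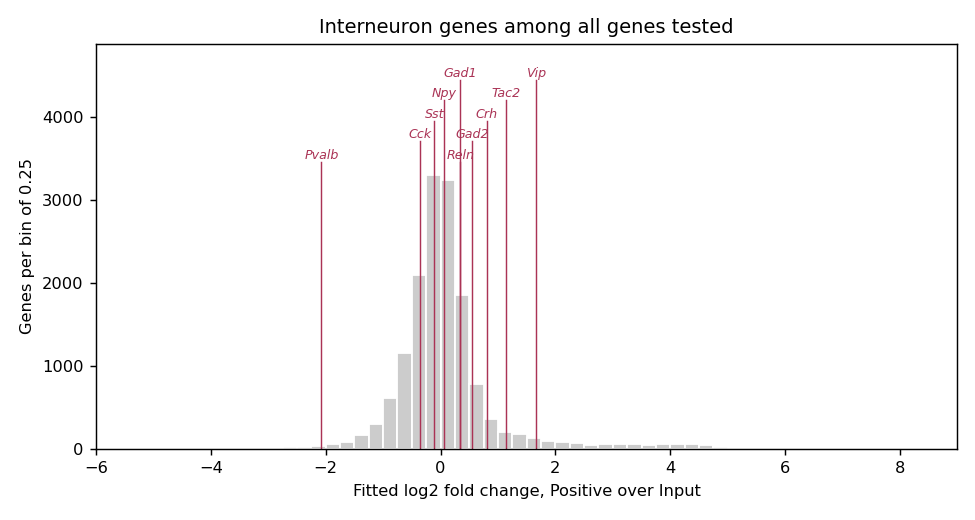
Histogram of fitted log2 fold changes (Positive over Input) of all 15344 genes tested, in bins of 0.25, with the 10 interneuron genes marked. Most genes lie near 0, and Vip at 1.66 and Pvalb at -2.07 stand on opposite flanks, where 8.3% of all genes are at 1 or above and 4.51% at -1 or below.

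Other interneuron genes were examined from lists, and these genes were tested. In 5 lists of interneuron peptides, subtype markers and transcription factors with 35 distinct genes, 8 passed as higher and 6 as lower (edgeR's quasi-likelihood test, Benjamini-Hochberg adjusted p under 0.05). That is 40.0% called, beside 46.0% of all genes, with a median log2 fold change of 0.02. Over the 108 distinct genes of all lists, 46.3% were called. The shares of all genes, 24.0% higher and 22.0% lower, stand beside each list count below. The lists were chosen with earlier results of these data known.

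Among 9 other peptide genes, 3 rose and 1 fell, and the median log2 fold change was -0.04. Penk, the enkephalin precursor, rose by 0.45 ± 0.13 (SE, adjusted p = 0.0119 in edgeR), from 438.3, 431.5 and 353.8 scaled reads to 581.9, 473.1 and 617.0. Pnoc, the nociceptin precursor, rose by 0.66 ± 0.18 (adjusted p = 0.00835 in edgeR) and Nts, neurotensin, by 0.66 ± 0.23 (adjusted p = 0.0308 in edgeR). Tac1, the substance P precursor, fell from 124.4, 146.6 and 131.5 scaled reads to 58.7, 70.7 and 86.2, a log2 change of -0.90 ± 0.20 (adjusted p = 0.00234 in edgeR). Both tachykinin genes were thus measured, and Tac2 and Tac1 had fitted values of opposite sign. The relative of Sst, Cort, and the peptides Grp and Adcyap1 did not pass. Penk no longer passed without Input 208 (0.36) or in limma (0.43), and Nts without Input 201, 207 or 208 or Positive 201 (0.40 to 0.74), in limma (0.61) or with total read scaling (0.59). Pthlh passed as lower without Input 208 or Positive 208 (-1.09 and -1.02) and with total read scaling (-0.95), and Cartpt in limma (-0.655). Pthlh had 30.6, 43.22 and 20.98 scaled reads in Input and 12.36, 18.6 and 20.77 in Positive. Cartpt had 39.27, 44.42 and 44.05 in Input and 37.07, 27.9 and 19.73 in Positive. Both had few reads and met the filter of over 20 scaled reads only in Input, so their lower calls are not independent of that filter.

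Among 8 measured subtype markers, 4 rose and 1 fell, with a median of 0.22. Htr3a, the serotonin receptor channel that marks many caudal-origin interneurons, rose from 151.0, 171.1 and 161.5 scaled reads to 303.8, 289.2 and 409.7, a log2 change of 1.05 ± 0.16 (adjusted p = 0.000141 in edgeR). Nos1, the neuronal nitric oxide synthase, rose by 0.65 ± 0.10 (adjusted p = 0.000151 in edgeR). The neurogliaform markers Ndnf and Lamp5 rose by 0.64 ± 0.13 and 0.42 ± 0.14 (adjusted p = 0.00166 and 0.0293 in edgeR). Calb2, which encodes calretinin of interneuron-selective cells, went down, from 941.0, 1083 and 887.8 scaled reads to 720.7, 666.4 and 665.2 (log2 -0.51 ± 0.10, adjusted p = 0.000886 in edgeR). Calb1, Chrm2 and the cannabinoid receptor gene Cnr1 of cholecystokinin basket cells did not pass, and Cnr1 had a log2 value of -0.13 ± 0.08 (SE). Lamp5 did not pass without Input 207 or 208 or Positive 201 or 208 (0.32 to 0.41), in limma (0.41) or with total read scaling (0.35), and Cnr1 passed as lower without Positive 208 (-0.18) and with total read scaling (-0.20).

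The transcription factor and other lineage genes were mixed in direction. Of 6 caudal-origin genes, Adarb2 rose by 0.44 ± 0.11 (adjusted p = 0.00646 in edgeR) and Nr2f2 changed by -0.45 ± 0.09 (adjusted p = 0.00155 in edgeR), and the median was 0.09. Of 4 measured medial-origin genes, Sox6 and Satb1, which act in parvalbumin and somatostatin cells, changed by -0.81 ± 0.17 and -0.45 ± 0.08 (adjusted p = 0.00218 and 0.000761 in edgeR). Lhx6, the master regulator of that lineage, had a log2 value of 0.14 ± 0.13 and did not pass. Etv1, a factor of the same lineage list, had a log2 value of -0.12 ± 0.08 and did not pass, and the median of the list was -0.29. With the replicate block Npas3 of the caudal-origin list also passed as lower (-0.39), as it did without Positive 201 (-0.52), and Etv1 passed with total read scaling (-0.20).

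Genes shared by most interneurons mostly did not pass. Of 8 pan-interneuron genes, none rose and only Erbb4, the neuregulin receptor, fell, by 0.36 on the log2 scale (SE 0.09, adjusted p = 0.00424 in edgeR). The vesicular GABA transporter gene Slc32a1 had 1411, 1191 and 1095 scaled reads in Input and 1417, 1258 and 1529 in Positive, with a log2 value of 0.18 ± 0.10 that did not pass, and without Input 201 it passed as higher (0.29), as did Dlx5 (0.86). The homeobox genes Dlx1, Dlx2, Dlx5 and Dlx6 did not pass with all libraries. The median was 0.11, and between 0.0066 and 0.28 with each library left out, lowest without Positive 208 and highest without Input 201.

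In the list of GABA synthesis, uptake and breakdown, with 7 genes, 1 rose and 2 fell. Abat, the GABA transaminase, rose by 0.45 ± 0.08 (adjusted p = 0.000935 in edgeR). The transporter genes Slc6a11 and Slc6a13, found mainly outside neurons, changed by -0.40 ± 0.11 and -0.73 ± 0.22 (adjusted p = 0.0095 and 0.0169 in edgeR). The glutamine transporter gene Slc38a1 had a log2 value of 0.01 ± 0.07 and did not pass. Slc6a13 did not pass without Input 201 (-0.67) or Input 207 (-0.62). The median was -0.11, and between -0.16 and -0.0085 with each library left out, nearest to 0 without Positive 208.

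Of 17 measured receptor and adaptor genes of these peptides and of reelin, none passed as higher and 4 fell. Of all genes, 24.0% were called higher and 22.0% lower. The median was -0.23 beside -0.01 over all genes. By animal, the median was -0.36 and -0.23 in animals 201 and 207 and 0.05 in animal 208, and with each library left out it ran from -0.24 to -0.085. The number called lower was 6 with the replicate block, 8 with total read scaling or without Positive 208, and 2 without Positive 207. Lrp8, which encodes the reelin receptor ApoER2, fell from 1507, 1252 and 1309 scaled reads to 937.7, 902.9 and 857.3, a log2 change of -0.59 ± 0.09 (adjusted p = 0.00016 in edgeR). The other reelin receptor gene Vldlr changed by -0.30 ± 0.09 and Dab1, the adaptor that carries the reelin signal, by -0.43 ± 0.08 (adjusted p = 0.0171 and 0.000478 in edgeR). Reln itself had a fitted value of 0.34, of opposite sign to its receptors and adaptor. Crhr2, a receptor of the corticotropin-releasing hormone family, changed by -0.69 ± 0.23 (adjusted p = 0.0279 in edgeR). The VIP receptor gene Vipr1 had a log2 value of 0.12 ± 0.11. None of the somatostatin receptor genes Sstr1 to Sstr4 passed in the main fit (all libraries, no block, relative log expression scaling, over 20 scaled reads). Nor did the neuropeptide Y receptor genes Npy1r, Npy2r and Npy5r. Sstr4 passed as lower with the block (-0.41), total read scaling (-0.47), a minimum of 100 scaled reads (-0.42) or without Positive 208 (-0.57). Sstr3 passed as lower with total read scaling (-0.30) or without Positive 208 (-0.37). So did Adcyap1r1 (-0.26 and -0.24), also with the minimum of 100 (-0.21), and Crhbp (-0.40 and -0.46), also with the block (-0.33). Sstr1 passed as higher without Positive 201 (0.59), and Tacr1, the substance P receptor gene, as higher in limma (0.599). Vldlr was lost without Input 208 or Positive 201 or 207 (-0.27 to -0.24) and in limma (-0.32), and Crhr2 without Input 201 (-0.52) or Positive 207 (-0.56).

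Of 13 peptide processing and dense-core vesicle genes, 2 passed as higher and 4 as lower, where 24.0% and 22.0% of all genes were called. Pcsk1n, an inhibitor of a prohormone convertase, fell from 8853, 12340 and 10730 scaled reads to 4955, 4991 and 6122, a log2 change of -0.99 ± 0.12 (adjusted p = 2.79e-05 in edgeR). Cpe, the carboxypeptidase that trims peptide precursors, changed by -0.38 ± 0.09, Scg3 by -0.37 ± 0.08 and Chga by -0.29 ± 0.10 (adjusted p = 0.00385, 0.00297 and 0.033 in edgeR). The convertase gene Pcsk2 rose by 0.23 ± 0.08 and the granin gene Scg2 by 0.28 ± 0.09 (adjusted p = 0.0431 and 0.019 in edgeR). Pcsk2 did not pass when any library other than Positive 207 was left out (0.15 to 0.24), Scg2 without Input 201 or 208 or Positive 207 (0.22 to 0.26), and Chga without Input 207 (-0.16) or Positive 207 (-0.23). With total read scaling none of the list passed as higher, and in limma Pcsk2, Scg2 and Chga did not pass.

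**Figure D4:**
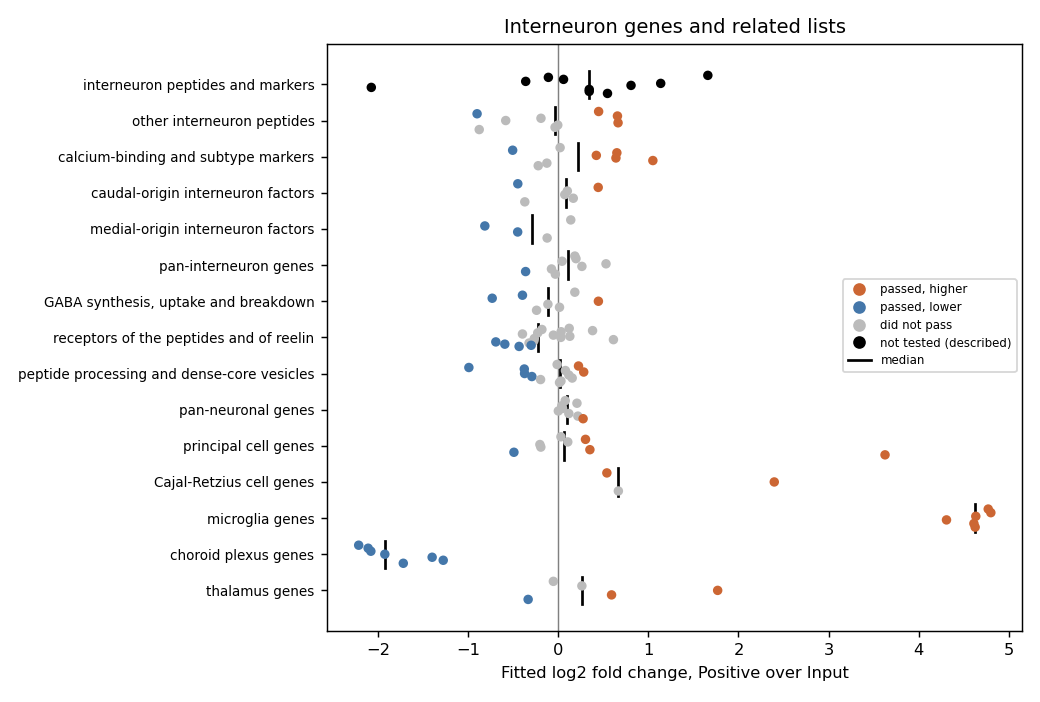
Fitted log2 fold change (Positive over Input) of the 10 interneuron genes (top row, black, not tested) and of each measured gene of 14 lists, with genes that passed as higher in orange, as lower in blue and the others in grey, and a bar at each median. The interneuron lists spread on both sides of 0, the 6 microglia genes lie above 4 and the 7 choroid plexus genes below -1.

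Genes of other cells in the dissected tissue gave the setting for these values. All 6 microglia genes rose, with a median of 4.63, and their summed scaled reads went from 3982 to 4383 in Input to 79050 to 116300 in Positive. All 7 choroid plexus genes fell, with a median of -1.92 and summed scaled reads of 28190 to 37830 in Input and 6946 to 8492 in Positive. Of 8 pan-neuronal genes only Nefm passed in the unblocked edgeR fit, as higher (0.28, and 0.24 and not passing without Input 208), and the median was 0.10. Nefl passed as higher with the replicate block and in DESeq2 (0.22 in both). Of 8 principal cell genes 3 rose and 1 fell, with a median of 0.07. Camk2a did not pass when any Input library or Positive 208 was left out (0.19 to 0.36), and Prox1 did not without Input 201 or 207 or Positive 208 (0.17 to 0.35), and neither passed with total read scaling, in limma or with a minimum of 100 scaled reads. Neurod2 passed as lower with the replicate block (-0.21), without Positive 208 (-0.35) and with total read scaling (-0.28). Dsp, a gene of dentate granule cells, rose by 3.63 ± 0.26 (adjusted p = 1.55e-07 in edgeR) while Slc17a7, the vesicular glutamate transporter gene of excitatory cells, had 0.03 ± 0.11. Of 3 measured Cajal-Retzius genes, Trp73 rose by 0.54 ± 0.19 and Ebf3 by 2.40 ± 0.33 (adjusted p = 0.0378 and 8.06e-05 in edgeR), beside 0.34 for Reln. Ebf3 had 56.6, 20.7 and 18.9 scaled reads in Input and 164.8, 203.5 and 134.5 in Positive. Trp73 did not pass without Input 201 or 208 or Positive 201 or 207 (0.40 to 0.59) or with total read scaling (0.46), and without Input 207 Nhlh2 passed as higher (1.19). Nhlh2 had 20.91, 37.59 and 12.59 scaled reads in Input and 41.19, 39.53 and 33.23 in Positive. With all libraries, Nhlh2 and Ebf3 met the filter of over 20 scaled reads only in Positive, so their higher calls are not independent of that filter. Of 5 thalamus genes 2 rose, among them Prkcd by 1.77 ± 0.17 (adjusted p = 2.36e-06 in edgeR), and Rora changed by -0.33 ± 0.10 (adjusted p = 0.0129 in edgeR). Lef1, the other that rose, did not pass without Input 201, 207 or 208 or Positive 201 (0.38 to 0.67) or with total read scaling (0.52), and Rora was lost without Input 208 (-0.32). Tcf7l2 and Slc17a6 of the thalamus list had log2 values of -0.05 ± 0.20 and 0.26 ± 0.14 (SE) and did not pass. Which cells gave the Dsp and Prkcd reads in Positive was not tested. No gene measured from these lists was at 0 in any library, and none of the 7 medial habenula genes, where Tac2 is also abundant, was in the table. The authors' filter left out genes with few reads in both fractions, so the missing habenula genes may still have had reads. The part of these other cells in the values of the 10 genes was not tested.

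Profiles over the 6 libraries were compared with 12122 genes of at least 100 scaled reads on average, by the distance between centred log2 values. The closest to Vip were Gbp3, Lhfpl2 and Maml3, with fitted log2 values of 1.54, 1.56 and 1.61 and distances of 0.35, 0.44 and 0.45. The closest to Pvalb were Gpr17, Gm21781 and Trim59, with fitted log2 values of -2.01, -2.25 and -1.80 and distances of 0.46, 0.48 and 0.49. Sst had a much closer neighbour, Pcdhb17, at 0.03, and Gad1 had Amer3 at 0.05. Tac2 had no near neighbour, since the closest, Igfbp7, was at 0.75. The nearest to Cck, Npy, Crh, Reln and Gad2 were Gnai1, Pcdhb14, Ctbs, Per1 and Mre11a, at 0.08, 0.14, 0.16, 0.08 and 0.07. How much of each distance lay between fractions and how much within them was not computed.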

How the data were processed

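Libraries were directional, poly(A)-selected and paired-end, made from Input and Positive RNA of 3 mice. According to the study's methods, the authors aligned reads to mm10 by direction in Strand NGS; the counting step is not given in the sources used here, and the rows are Ensembl genes. The deposited table holds the authors' expected counts, which are partly fractional (18.5% to 25.0% of values above 0 were whole), beside log2 values normalized with DESeq. Genes had at least 20 raw reads in all libraries of a fraction in the authors' filter.

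Counts were rounded and fitted in edgeR 4.0.16 (R 4.3.3) by the quasi-likelihood test with relative log expression scaling and no block, on 15344 genes with over 20 scaled reads in every library of a fraction (44 removed), with Benjamini-Hochberg adjustment and a threshold of 0.05. The SE given with a fitted log2 value is the size of that value divided by the square root of its quasi-likelihood F statistic. Within-animal log2 values used a pseudocount of 1. DESeq2 1.42.0, limma 3.58.1 on the deposited log2 values, other scalings and filters, a replicate block and the omission of each library were tried. Same-numbered libraries came from the same mouse per the labels, and their deviations from the fraction means correlated at 0.27, 0.08 and 0.15 for animals 201, 207 and 208. The scripts were tested on simulated data. Some list genes are not reported here. Members and lists were chosen with earlier results of these data known. Named list genes are the 2 with the highest mean in a list and up to 4 called genes with a log2 change of at least 1 in size; the other genes named, called or not, were chosen after their values were seen. For each member, the 3 genes with the nearest profiles were found, and the nearest is named, or all 3 for Vip and Pvalb. Gene coordinates are those of the files, exon lengths come from GENCODE vM21 and promoters from RefSeq (GRCm38.p6), where Crh had no entry.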

Additional observations from a re-analysis of the deposited data

How the results depend on the processing

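The counts of interneuron genes that follow were set by their selection on this contrast and are no sign of stability. Of the 10 genes, 4 to 6 passed as higher and 1 to 2 as lower when each library was left out in turn, and 1 passed as lower without Input 207 and in limma, where Cck was lost. Among all the fits tried, Cck did not pass in 2, Crh in 4, Reln in 5, and Sst and Npy in 14. Among all genes, 7053 were called (3675 higher, 3378 lower), against 5540 to 7265 with a library left out (3011 to 3817 higher, 2527 to 3448 lower), 7572 with the replicate block, 6682 in DESeq2 and 6343 in limma. The replicate block left 6 interneuron genes passing as higher and 2 as lower, and a minimum of 100 scaled reads gave no value for Crh and Tac2. Scaling by total reads gave 7320 calls, 3048 higher and 4272 lower, and moved the median of all genes from -0.01 to -0.09; 5 interneuron genes then passed as higher and 2 as lower. Over the list genes, 25 were called higher and 25 lower, against 26 and 29 with the replicate block, 16 to 23 and 22 to 33 with a library left out (16 without Input 208), and 17 and 34 with total scaling.

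Values close to 0 changed sign. With total scaling, Npy was at -0.019, Syt1 at -0.037, Slc17a7 at -0.047, Slc38a1 at -0.062, and the medians of peptide processing and principal cell genes at -0.062 and -0.00893. With the minimum of 100 scaled reads, the medians were 0.179 for other peptides, -0.161 for caudal-origin genes, -0.060 for pan-interneuron genes and -0.013 for peptide processing genes, which had -0.00475 in limma, and Slc38a1 was at -0.0125, and at -0.0030 in limma. With a library left out, Npy ran from -0.052 to 0.284, Grp from -0.181 to 0.085, Slc38a1 from -0.0014 to 0.042, Syt1 from -0.052 to 0.087, Slc17a7 from -0.051 to 0.128, the median of other peptides from -0.165 to 0.011, that of caudal-origin genes from -0.072 to 0.219, that of peptide processing genes from -0.026 to 0.088 and that of principal cell genes from -0.028 to 0.124. The cause of these changes was not tested. Each fraction has 3 libraries, and Crh and Tac2 rest on few reads.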
